A study of Mus musculus with 4 samples.

Results

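The 32 genes described here belong to the integrated stress response and to the amino acid supply that it controls. They were listed by name, with earlier results of these data known, and all 32 were found among the 27998 gene identifiers of both count tables. They comprised 6 transcription factors, 7 feedback and signalling genes, 8 enzymes of serine, glycine, proline, asparagine and folate metabolism, 4 amino acid transporters and 7 aminoacyl-tRNA synthetases. The data were single-cell transcript counts (unique molecular identifiers, UMIs) from mouse pancreas at embryonic day 15.5. OGT KO-labelled cells came from PdxCre;OGTflox/flox;CAG GFP embryos, in which Cre is driven by the promoter of a pancreatic progenitor gene, and were sorted on their own GFP. Control cells came from OGTflox/flox embryos, labelled wild type although they carry the floxed Ogt allele with no Cre named, and were sorted on GFP at E-cadherin. Each genotype was 1 library sequenced in 2 runs and deposited as 1 pooled table, and the number of embryos is not given in the sources used here. Genotype and sort therefore cannot be told apart, no difference has a replicate check, no test was possible, and all intervals below are 95% intervals that cover counting error only.

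In the integrated stress response, kinases that sense amino acid shortage, unfolded protein, haem shortage or viral RNA phosphorylate the translation factor eIF2α. General translation then slows, while the mRNA of the transcription factor ATF4 is translated more. ATF4 pairs with C/EBP proteins on composite C/EBP-ATF response elements and drives genes that make, import and load amino acids onto tRNA, together with feedback genes that end the response. The exocrine pancreas is known for its heavy load of secretory protein and its reliance on the eIF2α kinase PERK. Because ATF4 is set largely by translation, its mRNA level is not a measure of its activity.

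The core of the composite element was searched as TGATGNAAN, on both strands, in the 250 bases before the start of each gene in the RefSeq promoter table (GRCm38.p6). That table held 27 of the 32 genes, and Cars, Slc7a5, Nars, Eif4ebp1 and Slc1a5 were not in it. A match was found for 9 of the 27 genes (33.3%), namely Aars, Asns, Atf3, Chac1, Gars, Nupr1, Pycr1, Slc7a11 and Vldlr, and for 1052 of all 27025 genes in the table (3.89%). The stricter form TGATGCAAN was held by 7 of the 27 genes (25.9%) and by 246 of all genes (0.910%). The 32 genes were listed as genes of the response that ATF4 drives through this element. The list is therefore not independent of the motif, and the higher share is a description. The windows of 5 genes are shown because these genes had their highest levels in different cell classes, as given further on. The match is in capitals within flanks of 10 bases, 5′ to 3′ on the gene's strand, and where the motif lies on the other strand its reverse complement is in capitals.
Asns: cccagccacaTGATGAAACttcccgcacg
Nupr1: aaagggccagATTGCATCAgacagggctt
Gars: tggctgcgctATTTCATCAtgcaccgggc
Atf3: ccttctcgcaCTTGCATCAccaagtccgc
Slc7a11: ctcatgtggcTGATGCAAAcctggagaat
The windows lie at chr6:7693214-7693242, minus strand for Asns, chr7:126625563-126625591, minus strand for Nupr1, chr6:55037960-55037988, plus strand for Gars, chr1:191183426-191183454, minus strand for Atf3 and chr3:50443661-50443689, minus strand for Slc7a11. The first base of the match stood at -23 from the start for Asns, -111 for Nupr1, -31 for Gars, -111 for Atf3 and -66 for Slc7a11. Slc7a11 had a second match at -48. In GENCODE M21 (GRCm38) the windows of Gars and Slc7a11 lie before the annotated gene, that of Atf3 within an intron of its gene, and those of Asns and Nupr1 overlap an exon of their own gene. A match is a run of letters and not a measured binding site.

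After filters 553 OGT KO-labelled cells with 10357581 UMIs and 921 control cells with 11810583 UMIs remained, and the libraries shared 0 barcodes. Both held 4 marker-based classes in enough cells to compare: acinar-like (93 OGT KO-labelled and 50 control cells), trunk/ductal-like (42 and 35), endocrine-like (42 and 23) and leukocyte-like (42 and 706). Although both libraries are labelled pancreatic epithelial cells, 76.7% of control cells and 7.6% of OGT KO-labelled cells were leukocyte-like, and 25.9% of OGT KO-labelled cells were mesenchyme-like. Ogt itself stood at 56.5 CPM (UMIs scaled by the summed total) in OGT KO-labelled cells and 61.8 in control cells over all cells (ratio 0.914, 0.818 to 1.02), and at 38.2 and 37.1 in acinar-like cells (ratio 1.03, 0.728 to 1.48). In endocrine-like cells it stood at 29.5 in OGT KO-labelled and 106 in control cells (ratio 0.279, 0.145 to 0.536). In leukocyte-like cells Ogt was also lower, at 40.9 and 64.8 (ratio 0.632, 0.416 to 0.924). Trunk/ductal-like cells had 62.9 and 86.7 (ratio 0.725, 0.476 to 1.11). Mesenchyme-like cells had 108 and 64.8 (ratio 1.66, 0.70 to 5.18), with 5 control UMIs. The exons deleted by Cre are not given in the labels and the counted tags may lie outside them, so the label was not checked by these values and is kept as "OGT KO-labelled". For leukocyte-like and mesenchyme-like cells it names the library alone, since the promoter that drives Cre is that of a pancreatic progenitor gene. Whether Cre acted in those cells was not tested.

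Levels are in CPM and are set side by side for 1 gene at a time. Of the 32 genes, 29 had at least 20 UMIs in each library over the 4 shared classes, and 22 of those had their highest level in the same class in both libraries. That class was acinar-like for 10 genes, leukocyte-like for 7, endocrine-like for 3 and trunk/ductal-like for 2. For 6 genes the highest class stood clear of the second by its interval in both libraries: Asns, Phgdh and Nupr1 in acinar-like cells and Atf3, Cebpb and Slc3a2 in leukocyte-like cells. The classes were found from the same cells, so this order is a description.

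**Figure D1:**
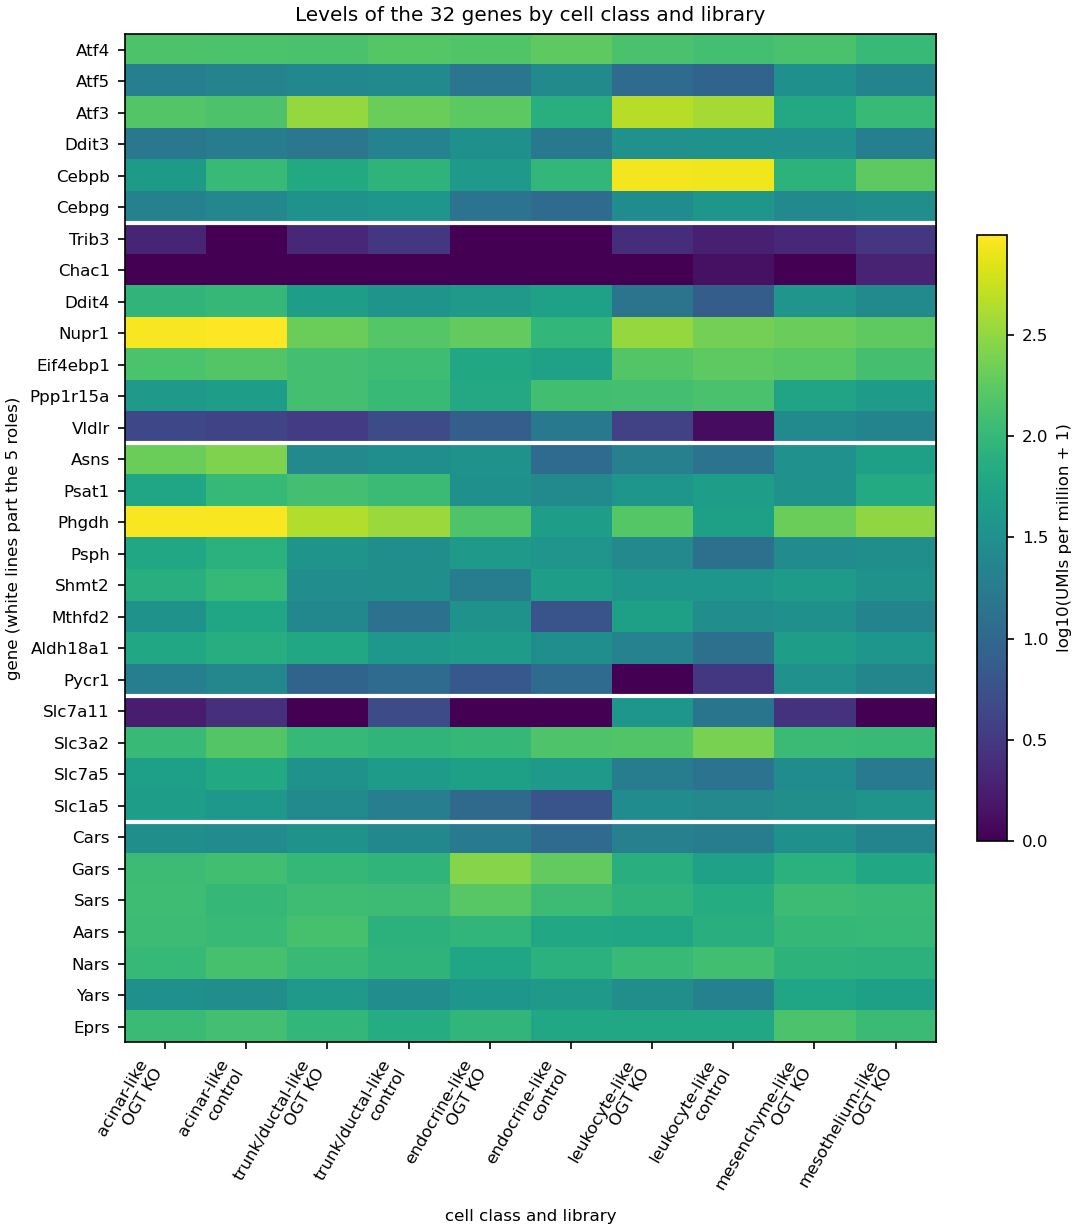
Level of each of the 32 genes (rows, grouped by role) in cell classes of each library (columns), as log10 of CPM plus 1. Nupr1 and Phgdh are brightest in the acinar-like columns of both libraries, Cebpb in the leukocyte-like columns, and Trib3 and Chac1 are near 0 in every column.

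Among the transcription factors, Atf4, the central activator of the response, was present in every class. It lay at 142, 134, 149 and 136 CPM in acinar-like, trunk/ductal-like, endocrine-like and leukocyte-like OGT KO-labelled cells, and at 139, 161, 177 and 126 in the same classes of control cells. Atf3, an early stress-induced repressor and activator, was highest in leukocyte-like cells, at 465 in OGT KO-labelled and 386 in control cells, against 155 and 144 in acinar-like cells. Cebpb, a C/EBP factor of myeloid and stressed cells, stood at 863 in OGT KO-labelled and 852 in control leukocyte-like cells. It was 20.7-fold (17.0 to 25.4) above acinar-like cells in the OGT KO-labelled library and 7.98-fold (6.75 to 9.52) above them in the control library. Atf5, an ATF4-related factor, ranged from 10.2 to 23.7 over these classes in OGT KO-labelled cells and from 8.31 to 26.2 in control cells. Ddit3, which encodes the pro-apoptotic factor CHOP, ranged from 14.2 to 32.2 and from 15.1 to 33.0. Cebpg, a C/EBP partner of ATF4, ranged from 12.7 to 33.2 and from 10.1 to 37.2.

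Of the feedback and signalling genes, Nupr1, a small stress-induced chromatin protein, was highest in acinar-like cells of both libraries. It stood at 916 in OGT KO-labelled and 987 in control acinar-like cells. Trunk/ductal-like cells had 210 and 159, and endocrine-like cells had 188 and 95.9. Ddit4, an inhibitor of mTORC1, was also highest in acinar-like cells, at 90.0 in OGT KO-labelled and 99.0 in control cells, and lowest in leukocyte-like cells, at 13.2 and 6.72. Ppp1r15a (GADD34), which directs the phosphatase that ends eIF2α phosphorylation, was lowest in acinar-like cells, at 39.9 and 44.9. In trunk/ductal-like cells Ppp1r15a stood at 123 in OGT KO-labelled and 107 in control cells. Eif4ebp1, a repressor of cap-dependent translation, ranged from 59.1 to 156 in OGT KO-labelled cells and from 50.5 to 178 in control cells, lowest in endocrine-like cells of both.

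Trib3, a pseudokinase that restrains ATF4, and Chac1, which degrades glutathione, were barely detected. Trib3 had 14 UMIs in all OGT KO-labelled cells and 8 in all control cells, and Chac1 had 3 and 3. At this depth no comparison between classes was possible for them. Vldlr, a lipoprotein receptor, had 101 UMIs in OGT KO-labelled cells and 15 in control cells. In OGT KO-labelled cells it was highest in mesenchyme-like cells, at 25.3 CPM, and in mesothelium-like cells, at 21.5, against 3.41 in acinar-like cells.

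Of the 8 amino acid enzymes, 6 were highest in acinar-like cells of both libraries among the 4 shared classes. Phgdh, the first enzyme of serine synthesis, stood at 920 in OGT KO-labelled and 931 in control acinar-like cells. The level was 446 and 347 in trunk/ductal-like cells, 146 and 45.4 in endocrine-like cells, and 161 and 49.8 in leukocyte-like cells. Asns, which makes asparagine, stood at 208 in OGT KO-labelled and 257 in control acinar-like cells, against 24.9 and 30.2 in trunk/ductal-like cells. The next steps of serine synthesis did not share 1 pattern. Psat1, the aminotransferase after Phgdh, was highest in trunk/ductal-like cells, at 123 in OGT KO-labelled and 109 in control cells, while Psph, the last phosphatase, was highest in acinar-like cells, at 59.7 and 80.4. Psat1 was 2.13-fold (1.65 to 2.73) higher in trunk/ductal-like than in acinar-like cells of the OGT KO-labelled library, and 1.09-fold (0.779 to 1.51) higher in the control library.

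Shmt2, which turns serine into glycine in mitochondria, was highest in acinar-like cells, at 75.7 in OGT KO-labelled and 101 in control cells. Aldh18a1 and Pycr1, the first and last enzymes of proline synthesis, were also highest there among the 4 shared classes, Aldh18a1 at 59.7 and 72.7 and Pycr1 at 18.8 and 23.2. Aldh18a1 in trunk/ductal-like OGT KO-labelled cells, at 59.3, did not differ from its acinar-like level beyond counting error. Mthfd2, the mitochondrial folate enzyme, had no common order: it was highest in leukocyte-like OGT KO-labelled cells, at 49.7, and in acinar-like control cells, at 58.0.

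Of the transporters, Slc3a2, the heavy chain shared by several amino acid exchangers, was highest in leukocyte-like cells, at 152 in OGT KO-labelled and 247 in control cells. Slc7a11, the cystine-glutamate exchanger that pairs with it, was also highest in leukocyte-like cells, at 36.5 in OGT KO-labelled and 13.6 in control cells. In acinar-like cells Slc7a11 stood at 0.682 in OGT KO-labelled and 1.55 in control cells (2 UMIs each). Its trunk/ductal-like level was 0 in OGT KO-labelled and 4.03 in control cells (0 and 2 UMIs). It had 0 UMIs in the endocrine-like cells of either library, with upper limits of 5.19 and 18.6. In the control library its leukocyte-like level was therefore not distinguishable from the trunk/ductal-like and endocrine-like ones at this depth. Slc7a5, the large neutral amino acid exchanger, was lowest in leukocyte-like cells, at 17.5 in OGT KO-labelled and 12.8 in control cells, against 47.7 and 65.7 in acinar-like cells. Slc1a5, a glutamine transporter, was highest in acinar-like cells among the shared classes, at 46.0 and 38.7.

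The aminoacyl-tRNA synthetases, which load amino acids onto tRNA, were detected in all 4 shared classes of both libraries. Gars (glycine) and Sars (serine) were highest in endocrine-like cells of both libraries, Gars at 281 in OGT KO-labelled and 187 in control cells and Sars at 163 and 111. Gars in endocrine-like cells was 2.54-fold (2.12 to 3.04) above acinar-like cells in the OGT KO-labelled library and 1.55-fold (1.05 to 2.23) above them in the control library. Eprs (glutamate and proline) was highest in acinar-like cells among the shared classes, at 109 in OGT KO-labelled and 124 in control cells. Cars (cysteine), Aars (alanine), Nars (asparagine) and Yars (tyrosine) had different highest classes in the libraries, with ranges of 15.5 to 33.2, 57.0 to 133, 57.6 to 107 and 29.2 to 39.1 over the classes of OGT KO-labelled cells. In control cells their ranges were 10.1 to 27.1, 60.6 to 104, 80.8 to 131 and 19.8 to 40.4. Yars and Eprs were higher in mesenchyme-like OGT KO-labelled cells than in the 4 shared classes, at 58.7 and 141.

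RNA from other cells was present in every class, and its amount differed between the libraries. The 26 listed acinar markers, of which 25 in OGT KO-labelled and 24 in control acinar-like cells had a UMI, summed to 9195 CPM in endocrine-like OGT KO-labelled cells and 4396 in endocrine-like control cells. These sums were 21.1% and 7.25% of the acinar-like level. Over the same pair of classes Phgdh stood at 15.9% and 4.88%, Asns at 15.6% and 3.93%, and Nupr1 at 20.6% and 9.72%. The endocrine-like percentages of Phgdh and Asns were below that of the summed acinar markers in both libraries. The part of acinar RNA in the endocrine-like values was not tested. In trunk/ductal-like cells the acinar markers stood at 18.2% in OGT KO-labelled and 7.84% in control cells, and Phgdh at 48.5% and 37.2%, above them in both.

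**Figure D2:**
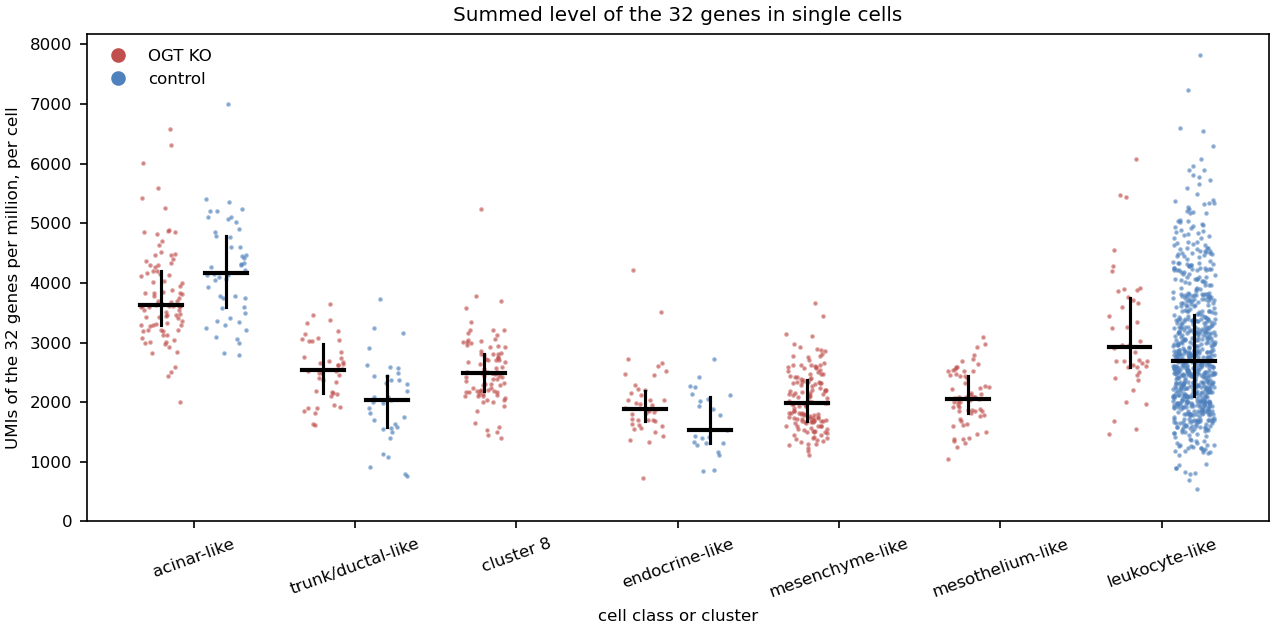
UMIs of the 32 genes together, in CPM of the cell's own total (vertical axis), for single cells of each class (horizontal axis; points are cells, thick horizontal lines medians, vertical lines the middle 50% of cells). Acinar-like cells sit highest, with medians of 3635 in OGT KO-labelled and 4159 in control cells; groups with fewer than 15 cells are not drawn.

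The summed level of the 32 genes was highest in acinar-like cells, and Nupr1 and Phgdh gave a large part of that sum. The sum was 3823 CPM in OGT KO-labelled and 4259 in control acinar-like cells, 2630 and 2219 in trunk/ductal-like cells, and 2019 and 1681 in endocrine-like cells. In leukocyte-like cells it was 3177 and 2916. Nupr1 and Phgdh together gave 1836 of the acinar-like sum in OGT KO-labelled and 1918 in control cells. Without these 2 genes the other 30 summed to 1987 in OGT KO-labelled and 2341 in control acinar-like cells, and leukocyte-like cells were highest, at 2687 and 2632. The genes left out were those highest in acinar-like cells alone. Those highest in leukocyte-like cells were kept, namely Cebpb (863 in OGT KO-labelled and 852 in control cells) and Atf3 (465 and 386). The order of the classes therefore depends on which genes are left out. Single cells overlapped between the libraries in each class.

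Acinar-like cells are those that make the digestive enzymes. Of the 32 genes 28 had at least 20 UMIs over both libraries there, and 0 were at least 1.5-fold higher in OGT KO-labelled cells, against 14.5% of the 9538 genes measured the same way. At least 1.5-fold lower were 3 (Cebpb, Psat1 and Mthfd2), against 13.0% of all genes. The median log2 ratio was -0.19 over the members and 0.03 over all genes, with 21 members below 0 and 7 above. Atf4 stood at 142 in OGT KO-labelled and 139 in control cells (ratio 1.02, 0.856 to 1.22), and Ddit3 at 14.7 and 17.0 (ratio 0.862, 0.504 to 1.51).

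Psat1 stood at 58.0 CPM in OGT KO-labelled acinar-like cells (170 UMIs) and 99.8 in control acinar-like cells (129 UMIs), a ratio of 0.581 (0.459 to 0.736). Mthfd2 stood at 33.8 (99 UMIs) and 58.0 (75 UMIs), a ratio of 0.582 (0.427 to 0.797). The neighbouring steps were nearer to even. Phgdh had a ratio of 0.988 (0.922 to 1.06), Psph 0.742 (0.579 to 0.955), Shmt2 0.753 (0.604 to 0.942) and Asns 0.809 (0.707 to 0.927). All 8 enzymes had ratios below 1, and their summed level was 1433 in OGT KO-labelled and 1622 in control cells (ratio 0.883, 0.838 to 0.931).

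Cebpb stood at 41.6 in OGT KO-labelled acinar-like cells and 107 in control acinar-like cells (ratio 0.390, 0.303 to 0.501). Beside it, the 22 leukocyte markers summed to 775 CPM in OGT KO-labelled and 4173 in control acinar-like cells, with 0 of them at 0 in either. These sums were 2.16% and 13.6% of the leukocyte-like level, and Cebpb stood at 4.82% and 12.5% of its own. In control cells the percentage of Cebpb was below that of the summed leukocyte markers, and in OGT KO-labelled cells above it. The part of leukocyte RNA in the Cebpb ratio was not tested. With the leukocyte-like profile subtracted in proportion to its markers, Cebpb fell to -10.8 CPM in control cells, so more was taken off than was present. A value below 0 does not measure how much of the level was leukocyte RNA. Psat1 (ratio 0.539) and Mthfd2 (0.533) kept their direction.

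The 3 measured transporters and the 7 synthetases stayed within 1.5-fold in acinar-like cells. Slc3a2 stood at 106 in OGT KO-labelled and 155 in control cells (ratio 0.684, 0.571 to 0.821) and Slc7a5 at 47.7 and 65.7 (ratio 0.726, 0.551 to 0.963). The 7 synthetases had ratios from 0.755 for Nars to 1.21 for Sars, with a summed ratio of 0.957 (0.881 to 1.04). Trib3 (3 UMIs in OGT KO-labelled and 0 in control cells), Chac1 (0 and 0), Slc7a11 (2 and 2) and Vldlr (10 and 4) were too few to compare. The OGT KO-labelled cells were those of cluster 7, led by Cpa1 and Ptf1a, while 49 of the 50 control cells formed cluster 13, led by Prss1 and Cela3a. The acinar markers summed to 43517 in OGT KO-labelled and 60612 in control cells, and the median cell had 31391 UMIs in OGT KO-labelled and 23318 in control cells. The part of these differences in the ratios was not tested.

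Genes of the same pathways outside the 32 are read against the same shares of all genes in acinar-like cells, 14.5% higher and 13.0% lower. Of 18 sensors and machinery genes, all 18 measured, 0 were at least 1.5-fold higher and 2 lower: Dnajc3, a chaperone that inhibits PERK (ratio 0.653, 0.568 to 0.751), and Impact, an inhibitor of the kinase GCN2 (0.441, 0.221 to 0.880). Of 16 other synthetases and partners 1 was lower, Lars (0.543, 0.402 to 0.736), and 0 were higher. Of 10 measured other transporters 2 were higher, among them Slc1a4 (19 UMIs in OGT KO-labelled and 2 in control cells, ratio 4.19, 1.01 to 37.1). The 2 lower transporters were Slc7a7 (0.303, 0.127 to 0.696) and Slc7a8 (0.206, 0.0710 to 0.536). Of 13 measured further targets 1 was higher and 3 lower, Rab32 (0.317), Atf6 (0.388) and Fam129a (0.588). Among 19 measured immediate early genes, which tissue dissociation can induce, 8 were lower and 2 higher, with Klf2 (0.223), Dusp1 (0.376), Zfp36 (0.412) and Fosb (0.461) among the lower. Among 20 mitosis genes 4 were lower (Mki67, Ube2c, Cenpe and Plk1, ratios 0.550 to 0.638) and 0 higher. Leukocyte markers stood at 2.16% of their leukocyte-like level in OGT KO-labelled and 13.6% in control acinar-like cells. The immediate early genes summed to 3150 CPM in OGT KO-labelled and 3343 in control acinar-like cells, against 8412 and 7786 in leukocyte-like cells. The part of leukocyte RNA in the lower ratios of this paragraph was not tested.

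**Figure D3:**
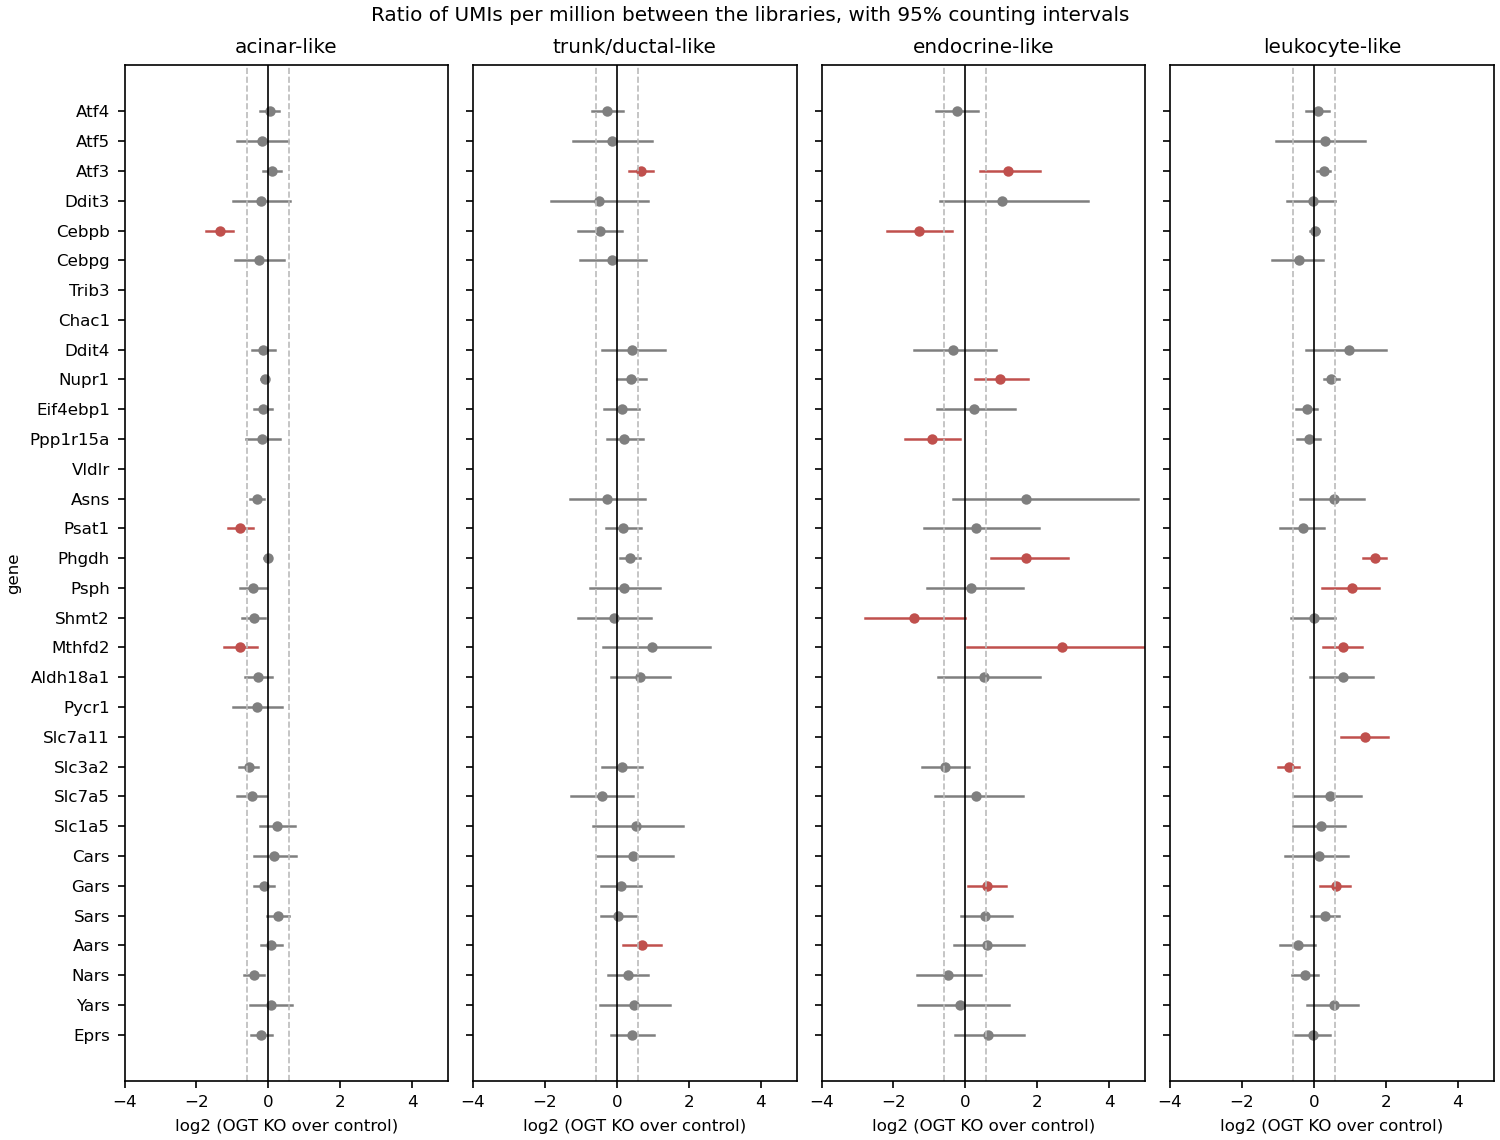
Log2 ratio of CPM, OGT KO over control, for the genes with at least 20 UMIs in 4 classes (points, with 95% counting intervals as lines; dashed lines mark 1.5-fold). Red marks ratios of at least 1.5-fold whose interval leaves out 1; the interval of Mthfd2 in endocrine-like cells runs beyond the axis.

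Trunk/ductal-like cells were named after markers of ducts and of the trunk, which holds bipotent progenitors of duct and endocrine cells. They formed cluster 9, led by Spp1, Col9a3 and Ppp1r1b. At resolution 2 the libraries parted: a trunk/ductal-like cluster held 42 OGT KO-labelled and 0 control cells, and another held 0 and 35. How far the cells of the libraries match in state was not tested. Of 27 genes measured in this class, 4 were at least 1.5-fold higher in OGT KO-labelled cells (background 13.4% of 7124 genes) and 0 lower (background 12.6%). The higher share was thus close to the background. The median log2 ratio was 0.19 over the members and 0.03 over all genes. Atf3 stood at 327 in OGT KO-labelled and 208 in control cells (ratio 1.58, 1.25 to 2.00), and Aars at 133 and 82.7 (ratio 1.61, 1.11 to 2.36). The other 2, Mthfd2 (20 UMIs in OGT KO-labelled and 6 in control cells) and Aldh18a1 (50 and 19), had intervals that held 1. The Atf3 ratio fell below 1.5 on other cell sets: its log2 ratio was 0.19 with doublets kept and 0.28 at the lower clustering resolution or with the 32 genes left out of clustering, against 0.66 here. In these settings a Cym-led cluster of 130 or 131 OGT KO-labelled cells was named trunk/ductal-like, against 42 cells here. Here the Cym-led cluster 8 (89 OGT KO-labelled cells) stayed unnamed and was left out of this comparison. Atf4 stood at 134 in OGT KO-labelled and 161 in control cells (ratio 0.831, 0.619 to 1.12).

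All 7 synthetases had ratios above 1 in trunk/ductal-like cells, from 1.03 for Sars to 1.61 for Aars, and their summed level was 618 in OGT KO-labelled and 494 in control cells (ratio 1.25, 1.07 to 1.46). Phgdh stood at 446 in OGT KO-labelled and 347 in control cells (ratio 1.29, 1.07 to 1.55). With the leukocyte-like and acinar-like profiles subtracted, Phgdh was left at 345 and 339 (ratio 1.02). The leukocyte-like profile itself held acinar markers, at 18.4% of their acinar-like level in OGT KO-labelled and 7.01% in control cells. In this class the subtraction took Asns to -16.65 in OGT KO-labelled cells and Cebpb to -44.19 in control cells, more than was present. The part of other classes' RNA in the Phgdh ratio is therefore not measured by it. The OGT KO-labelled cells of this class also held more transcripts of dividing cells. Of 20 mitosis genes 12 were at least 1.5-fold higher and 0 lower, with sums of 2074 in OGT KO-labelled and 1385 in control cells. Of 19 measured replication genes 11 were higher and 0 lower, with sums of 1938 and 1195. The part of cell division in the synthetase values was not tested.

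Endocrine-like cells were led by Gcg, Chgb and Pyy, with the progenitor gene Neurog3 also among the top 10 genes. They were few and shallow in the control library (23 cells, 198130 UMIs). Of 23 genes measured, 9 were at least 1.5-fold higher in OGT KO-labelled cells (background 22.8% of 6138 genes) and 3 lower (background 16.8%). The median log2 ratio was 0.29 over the members and 0.05 over all genes. Gars stood at 281 in OGT KO-labelled and 187 in control cells (ratio 1.51, 1.06 to 2.20), and remained 1.47-fold higher with leukocyte-like and acinar-like profiles subtracted. Atf3 stood at 173 and 75.7 (ratio 2.28, 1.33 to 4.21). Mthfd2 had 23 UMIs in OGT KO-labelled and 1 in control cells (ratio 6.41, 1.04 to 264).

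Phgdh stood at 146 in OGT KO-labelled and 45.4 in control endocrine-like cells (ratio 3.22, 1.63 to 7.24), and Nupr1 at 188 and 95.9 (ratio 1.97, 1.21 to 3.37). The acinar markers beside them summed to 9195 and 4396, as given above. With the other classes' profiles subtracted, Phgdh fell to -67.75 in OGT KO-labelled and -42.4 in control cells, and Nupr1 to -16.85 and -26.33. The subtraction thus took off more than was present and does not measure the part of other classes' RNA. The subtracted leukocyte-like profile itself held acinar markers, at 18.4% and 7.01% of their acinar-like level. On the lower side Ppp1r15a stood at 63.3 in OGT KO-labelled and 121 in control cells (ratio 0.522, 0.311 to 0.896), Shmt2 at 16.9 and 45.4 (0.371, 0.144 to 0.998) and Cebpb at 39.4 and 95.9 (0.410, 0.221 to 0.778). The leukocyte markers summed to 841 in OGT KO-labelled and 5729 in control endocrine-like cells, or 2.34% and 18.7% of the leukocyte-like level, with 0 of 22 at 0 in OGT KO-labelled and 1 in control cells. Cebpb stood at 4.56% and 11.2%. After subtraction Cebpb fell to -96.07 in control cells, Atf3 to -9.346 and Mthfd2 to -6.055, again below 0. Shmt2 was left at 0.0277 in OGT KO-labelled and 42.3 in control cells. With the 5 top cells for the gene left out of each library, the log2 ratio of Nupr1 was 2.58, against 0.97, and that of Gars was 1.38, against 0.59. That setting takes 5 of 42 OGT KO-labelled but 5 of 23 control cells, so it lowers the control side more. Control cells had only 19 UMIs of Nupr1 and 37 of Gars. Of 14 measured replication genes 8 were at least 1.5-fold higher in OGT KO-labelled endocrine-like cells and 1 lower, with sums of 836 in OGT KO-labelled and 631 in control cells.

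**Figure D4:**
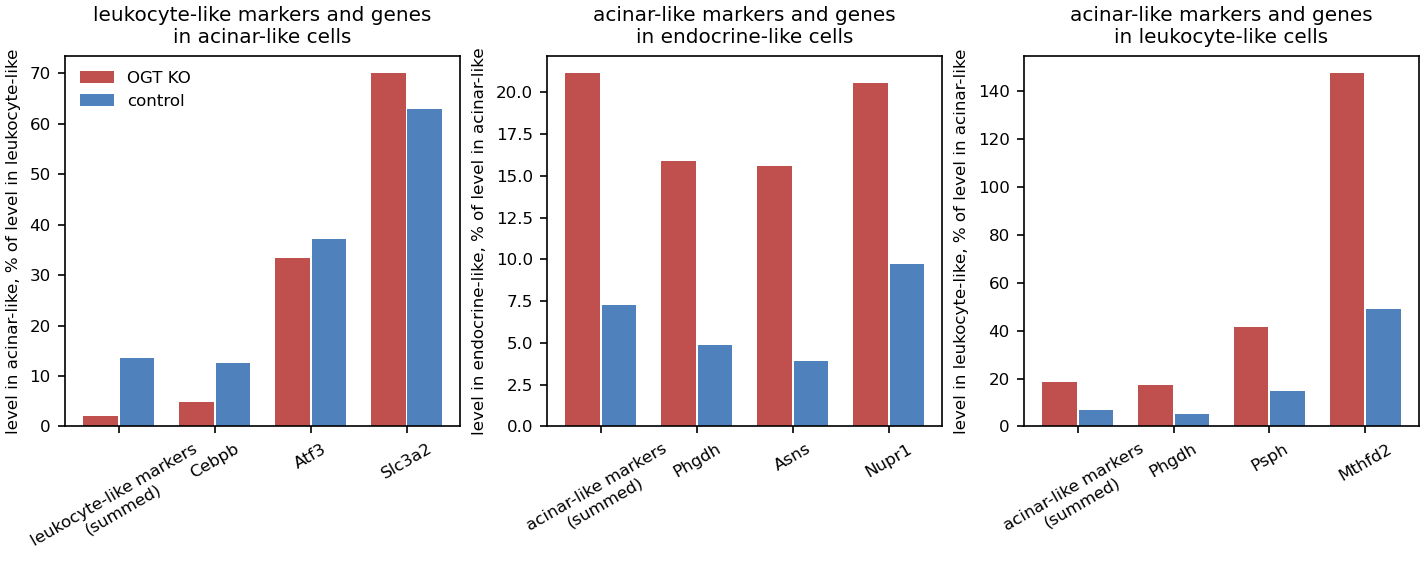
Level in 1 class as a percentage of the level in another class of the same library, for the summed markers of the second class and for 3 of the genes (bars; OGT KO-labelled left, control right). Cebpb in acinar-like cells stands above the markers in OGT KO-labelled cells (4.82% against 2.16%) and just below them in control cells (12.5% against 13.6%), Phgdh and Asns in endocrine-like cells lie below the markers in both, and Slc3a2, Atf3, Psph and Mthfd2 lie above them.

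In leukocyte-like cells 28 genes were measured, of which 7 were at least 1.5-fold higher in OGT KO-labelled cells (background 15.5% of 10619 genes) and 1 lower (background 20.8%). The median log2 ratio was 0.23 over the members and 0.00 over all genes, and over the members it was -0.44 without the 5 highest cells of each library for each gene. That setting takes 5 of 42 OGT KO-labelled but 5 of 706 control cells, so it lowers the OGT KO-labelled side more. Phgdh stood at 161 in OGT KO-labelled and 49.8 in control cells (ratio 3.23, 2.59 to 4.0), beside acinar markers at 18.4% and 7.01% of their acinar-like level and Phgdh at 17.5% and 5.34% of its own. Subtracting the acinar-like profile took Phgdh below 0, to -10.5 in OGT KO-labelled and -16.7 in control cells, so more was taken off than was present. Psph stood at 24.9 in OGT KO-labelled and 11.9 in control cells (ratio 2.10, 1.17 to 3.53), and the ratio was 2.54 after subtraction. Slc3a2 was lower, at 152 and 247 (ratio 0.615, 0.50 to 0.749). Of 20 mitosis genes 10 were at least 1.5-fold higher in OGT KO-labelled leukocyte-like cells and 0 lower, with sums of 1708 in OGT KO-labelled and 1125 in control cells. These calls depend on where cluster 6 is placed, which held 0 OGT KO-labelled and 95 control cells. It was led by haemoglobin genes, beside Lyve1, Pf4 and Dab2, and stayed unnamed, with erythroid as its best list and 4 of those markers detected. Its mitosis genes summed to 3820 CPM and its leukocyte markers to 22750. With cluster 6 counted among the control leukocyte-like cells (801 cells), 0 of the 20 mitosis genes were at least 1.5-fold higher or lower, with sums of 1708 in OGT KO-labelled and 1543 in control cells. Of the 28 members 6 were then higher and 1 lower, with a median log2 ratio of 0.26, and Gars had a ratio of 1.47 (1.09 to 1.96).

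Slc7a11 stood at 36.5 in OGT KO-labelled and 13.6 in control leukocyte-like cells (ratio 2.69, 1.67 to 4.19), and its log2 ratio was 2.17 as a mean over cells, against 1.43. Of its 25 UMIs in OGT KO-labelled cells 22 came from the 20 cells of cluster 10, led by the neutrophil genes S100a8 and S100a9, which held 50 of the 706 control cells and 42 of their 111 UMIs. Within cluster 10 Slc7a11 stood at 73.1 in OGT KO-labelled and 83.2 in control cells (ratio 0.879, 0.50 to 1.51). Mthfd2 (ratio 1.75, 1.18 to 2.51 in the class) had a ratio of 0.968 (0.477 to 1.90) within that cluster. Its log2 ratio in the class was 0.04 without the 5 highest cells of each library, which takes 5 of 42 OGT KO-labelled but 5 of 706 control cells. Gars had a ratio of 1.52 (1.12 to 2.02) in the class and 1.33 (0.735 to 2.38) within the cluster. Slc3a2 kept its direction there, at 113 in OGT KO-labelled and 200 in control cells (ratio 0.565, 0.371 to 0.841). Cebpb, even over the class (ratio 1.01, 0.929 to 1.10), stood at 1100 and 1798 within cluster 10 (ratio 0.612, 0.538 to 0.694).

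Over all cells, where the classes are mixed in different shares, the ratios were wider. Of 31 genes measured, 14 were at least 1.5-fold higher in OGT KO-labelled cells (background 38.6% of 13806 genes) and 6 lower (background 18.3%), with a median log2 ratio of 0.44 against 0.33 over all genes. The lower genes were Cebpb (ratio 0.194), Slc7a11 (0.300), Slc3a2 (0.463), Atf3 (0.526), Ppp1r15a (0.544) and Cebpg (0.620), and the higher ones included Phgdh (3.04), Asns (2.09), Ddit4 (2.99) and Pycr1 (3.50). With the named classes weighted by the control library's class shares in both libraries, the log2 ratio of Cebpb was 0.00, against -2.37 here, and that of Asns 0.13, against 1.06. Under the same weights Slc7a11 and Atf3 turned to the higher side, with log2 ratios of 1.40 and 0.28, and Pycr1 to the lower side, with -1.24. TMM and median-of-ratios scaling lowered every all-cell log2 ratio by 0.32 and 0.33.

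The genes with a match to the composite element had higher median ratios than those without in each of the 4 classes, over few genes and with overlapping ranges. In acinar-like cells the 6 measured genes with a match had a median log2 ratio of -0.11 (from -0.31 to 0.11), and the 17 measured genes whose window had no match had -0.21 (from -1.36 to 0.27). In trunk/ductal-like cells the medians were 0.40 over 5 genes with a match and 0.18 over 17 without. In endocrine-like cells they were 0.97 over 5 genes (from 0.59 to 1.68) and 0.16 over 15 (from -1.43 to 2.68), and in leukocyte-like cells 0.53 over 6 (from -0.44 to 1.43) and 0.11 over 17 (from -0.70 to 1.69). Over all cells the medians were 0.65 over 8 genes and 0.40 over 18. The matched endocrine-like genes include Asns, Nupr1 and Atf3, which fell below 0 in at least 1 library after subtraction of other classes' RNA. In trunk/ductal-like cells the same subtraction took Asns below 0 in OGT KO-labelled cells and the log2 ratio of Nupr1 from 0.40 to -0.49. There Atf3 (0.99) and Aars (0.78) stayed on the higher side. In leukocyte-like cells Asns fell below 0 in both libraries and Gars stayed at 0.61. Slc7a11, the highest there, had a ratio of 0.879 within cluster 10. By class the matched genes were spread as well: Asns and Nupr1, with the windows printed above, were highest in acinar-like cells, Gars in endocrine-like cells and Atf3 and Slc7a11 in leukocyte-like cells, while Chac1 was near 0 throughout. The absence of a match says only that these letters are not in that window.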

How the data were processed

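Counts of UMIs per gene and cell were deposited by the authors as whole numbers in 1 table per genotype. Per the submitters' processing notes, Cell Ranger 2.0.0, Seurat 2.0, DESeq2 1.14.1 and mm10 were used. Per the labels, the 4 samples are 2 sequencing runs of each library, and the runs cannot be separated in the tables. Symbols came from the GENCODE M21 annotation, and 353 of 27998 identifiers without one held 0.0311% of OGT KO-labelled and 0.0274% of control UMIs.

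Barcodes under 500 genes or over 10% mitochondrial UMIs were dropped. Scrublet marked 8 of 561 OGT KO-labelled and 4 of 925 control cells as doublets, which were removed. Cells of both libraries were clustered together with scanpy 1.11.5 and leidenalg 0.10.2 (2000 variable genes, 30 components, 15 neighbours, resolution 1), giving 18 clusters. Clusters were named after their best-scoring marker list (mean of scaled marker levels), given 5 detected markers (50 CPM and 0.25 of the maximum over clusters) and no excess of another list's markers among the top 10 genes. Names are rebuilt from markers by a rule chosen with the data in view, and the 32 genes and other lists were chosen with earlier results of these data known.

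UMIs were summed per class and library and scaled to CPM. Levels had exact Poisson intervals and ratios exact conditional intervals, at 95%. A gene counted as measured from 20 UMIs over the libraries together. Every member at least 1.5-fold apart between the libraries, with an interval leaving out 1, was given with its values in the 4 shared classes. Pathway genes were given under the same rule, up to the 6 largest per list, in acinar-like cells. Over all cells and between classes or clusters of 1 library, chosen genes were given. The interval was run on Poisson counts simulated from the acinar-like sums. Those counts hold counting error alone, so the run could not show the effect of spread between cells or libraries. Alternatives covered cell filters, doublets, resolution, clustering genes, scaling with edgeR 4.0.16 and DESeq2 1.42.0, totals, cell weights and count minimums. Subtraction of other classes' RNA used each source class's summed markers within the same library and was added after the data had been seen, as was the counting of unnamed cluster 6 with leukocyte-like cells.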

Additional observations from a re-analysis of the deposited data

Results flagged for a closer look

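Mthfd2, the mitochondrial folate enzyme, had ratios on opposite sides of 1 in different classes, each at least 1.5-fold and with an interval leaving out 1. Its ratio, OGT KO-labelled over control, was 0.582 in acinar-like cells, 6.41 in endocrine-like cells and 1.75 in leukocyte-like cells. The difference between classes was not tested, since each genotype is 1 library. The endocrine-like ratio rests on 1 control UMI, and the leukocyte-like one came to 0.968 (0.477 to 1.90) within cluster 10, the neutrophil-led cluster that holds 20 of the 42 OGT KO-labelled cells.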

How the results depend on the processing

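Of 62 alternative medians and motif counts, 58 stayed within the counting interval of the main median or within 1.5 times the main count. In all cells the median log2 ratio of the members was 0.11 under TMM and 0.11 under DESeq2 scaling and 0.16 at the control class shares, against 0.44. In leukocyte-like cells it was -0.44 without the 5 highest cells of each library, against 0.23; that setting takes 5 of 42 OGT KO-labelled but 5 of 706 control cells. In all cells at control class shares, Atf3 (0.28), Cebpb (0.0046), Pycr1 (-1.24) and Slc7a11 (1.40) reversed their log2 ratio. The median over acinar-like cells ranged from -0.25 to -0.06, that over trunk/ductal-like cells from 0.15 to 0.50 and that over endocrine-like cells from 0.17 to 1.18. Acinar-like cells gave no value at resolution 0.5, where the OGT KO-labelled cluster stayed unnamed, nor did endocrine-like cells under the looser cell filter and at resolution 2, with 13 control cells. The subtraction of other classes' RNA and the counting of cluster 6 as leukocyte-like were chosen after seeing the data. No paired analysis was possible because the repeat runs are pooled in the tables and no test was made.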

Other observations

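A further cluster of 89 OGT KO-labelled cells (cluster 8), with trunk/ductal markers as its best list but led by Cym and Serpina1b, stayed unnamed and had 0 control cells. Beside trunk/ductal-like cells of the same library, cluster 8 stood at 58.4 against 24.9 CPM for Asns (2.34-fold, 1.46 to 3.95), 71.3 against 46.2 for Ddit4 (1.54-fold, 1.07 to 2.27) and 140 against 97.3 for Gars (1.44-fold, 1.12 to 1.87). Also higher were Sars, at 160.5 against 113.9 (1.41-fold, 1.115 to 1.796), and Phgdh, at 516 against 446 (1.16-fold, 1.03 to 1.31). Atf3 stood at 216 against 327 (0.660-fold, 0.564 to 0.773), Ppp1r15a at 74.1 against 123 (0.601-fold, 0.461 to 0.785) and Psat1 at 86.4 against 123 (0.701-fold, 0.543 to 0.908). Also lower were Cebpg, at 18.0 against 33.2 (0.541-fold, 0.3155 to 0.9325), and Nars, at 69.05 against 107 (0.647-fold, 0.489 to 0.859). The acinar markers summed to 9101 CPM in cluster 8 and 7915 in trunk/ductal-like cells.

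Mesothelium-like cells were present in the OGT KO-labelled library alone (64 cells, 0 in control). Beside mesenchyme-like cells of that library they stood at 176 against 85.8 CPM for Cebpb (2.05-fold, 1.64 to 2.56), 67.3 against 33.4 for Psat1 (2.02-fold, 1.40 to 2.91), 315 against 210 for Phgdh (1.5-fold, 1.29 to 1.75) and 107 against 63.9 for Atf3 (1.68-fold, 1.28 to 2.21). Acinar markers summed to 7778 in mesothelium-like and 8116 in mesenchyme-like cells.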
